A study of Mus musculus with 24 samples.

Results

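The 34 genes described here encode the matrix, transporters and regulators that mark fibroblasts of the leptomeninges, the arachnoid and pial membranes on the surface of the brain. They were chosen by gene symbol from a fixed list, each matched 1 gene identifier among the 45706 genes of the table, and 33 of them were among the 15667 genes with enough counts to test. The remaining member, the small leucine-rich repeat protein gene Aspn, stayed between 0.141 and 1.37 CPM and was not tested. CPM relates a gene's estimated count to the total of its library, scaled by TMM.

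Leptomeningeal fibroblasts lay down fibrillar collagens, collagen VI and small leucine-rich repeat proteins, which bind collagen fibrils and set their spacing. Cells of the leptomeninges also carry transporters that clear organic anions, neurotransmitters and sulfate from cerebrospinal fluid. They make prostaglandin D2 synthase and retinoic acid, a signal to the developing cortex, though not every cell need do all of these. A pial sheet covers the ventral surface of the hypothalamus, so a block of whole hypothalamus can hold some of it. Collagen IV is a component of basement membranes, and in brain it is also made by cells of the vessel wall.

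The study sequenced polyadenylated RNA from the whole hypothalamus of male mice with diet-induced obesity (53 g on average, kept 2 to a cage) in 24 libraries. Each library carried 1 of 3 labels, with 8 libraries each. The PICK1i group received mPD5, an inhibitor of the PDZ domain protein PICK1, at 56 mg/kg. The PSD-95i group received UCCB01-147, an inhibitor of the postsynaptic scaffold PSD-95, at 25 mg/kg, and the Saline group received isotonic saline. Injections ran over 5 days, once a day, and the hypothalamus was collected 2 h after the last. The compounds, targets and doses differ together, so a comparison of the inhibitors is of these 2 treatments as given. The labels name neither strain nor age nor the mouse behind each library, and the protocol counts 6 saline mice where the labels give 8 Saline libraries. P values measure the spread between these libraries.

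Some libraries stood apart before any comparison was made. Counts summed to between 4762697 and 9228843 per library. Growth hormone (Gh) reached 48538 CPM in Saline 2 and 30712 CPM in Saline 3, and at most 40.8 CPM in the other 22 libraries, so these 2 libraries hold anterior pituitary transcripts. Mitochondrially encoded transcripts took 16.6%, 13.99%, 13.5% and 13.7% of counts in PICK1i 1, 2, 5 and 6, and 7.88% to 11.2% elsewhere. Saline 7 was the highest of all 24 libraries for 20 of the 34 members and among the highest 3 for 29 of them. Results against Saline are therefore given with all libraries, without Saline 7, without Saline 2 and 3, and without all of these. The list of 20 hypothalamic markers was detected in full, with a summed level of 1702 to 2670 CPM in PICK1i, 1670 to 2130 CPM in PSD-95i and 1687 to 17394 CPM in Saline, where the top end came from Pomc in Saline 3.

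Promoter stretches are shown for genes that the results turn on. Ptgds, Slc22a6, Slc13a4 and Ogn were high in the same libraries, while Prelp and Col6a3 did not share that pattern and were among the genes called between PICK1i and Saline. Each stretch holds up to 200 bases before the RefSeq start (GRCm38.p6), cut where an annotated exon begins, 5′ to 3′ along the gene. They are Ptgds at chr2:25469843-25469949 on the minus strand, Slc22a6 at chr19:8617796-8617995 on the plus strand, Slc13a4 at chr6:35308132-35308326 on the minus strand, Ogn at chr13:49607815-49608014 on the plus strand, Prelp at chr1:133921415-133921601 on the minus strand and Col6a3 at chr1:90843972-90844171 on the minus strand. The cut left out the 93, 13 and 5 bases nearest the start in Ptgds, Prelp and Slc13a4. The Ptgds stretch lies inside the GENCODE M21 bounds of its gene (25466709 to 25470046), so it is not upstream of that annotation. Capitals mark matches, on either strand, to the 5 short motifs searched.
Ptgds: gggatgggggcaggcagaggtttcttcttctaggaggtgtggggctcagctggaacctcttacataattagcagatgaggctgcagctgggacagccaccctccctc
Slc22a6: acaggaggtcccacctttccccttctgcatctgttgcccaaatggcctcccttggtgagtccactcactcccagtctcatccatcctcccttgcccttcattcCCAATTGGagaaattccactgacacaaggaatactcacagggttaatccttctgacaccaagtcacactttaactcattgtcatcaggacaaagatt
Slc13a4: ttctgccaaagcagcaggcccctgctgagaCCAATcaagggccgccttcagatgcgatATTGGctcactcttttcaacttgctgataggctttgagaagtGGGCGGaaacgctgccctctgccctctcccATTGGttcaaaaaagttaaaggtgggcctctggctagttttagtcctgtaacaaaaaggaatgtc
Ogn: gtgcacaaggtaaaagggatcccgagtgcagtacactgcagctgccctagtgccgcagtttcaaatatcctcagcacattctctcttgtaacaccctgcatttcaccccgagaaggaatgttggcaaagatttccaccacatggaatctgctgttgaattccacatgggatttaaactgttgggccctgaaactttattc
Prelp: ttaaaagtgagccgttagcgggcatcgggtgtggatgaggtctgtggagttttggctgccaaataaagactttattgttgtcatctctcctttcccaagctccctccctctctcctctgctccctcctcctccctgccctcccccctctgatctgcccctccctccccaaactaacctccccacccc
Col6a3: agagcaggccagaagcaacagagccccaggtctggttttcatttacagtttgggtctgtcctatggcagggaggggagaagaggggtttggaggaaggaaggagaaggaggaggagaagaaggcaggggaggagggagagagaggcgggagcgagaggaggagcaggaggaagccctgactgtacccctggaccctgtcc

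The motifs were the forkhead-type core TGTTTA, the TATA box as TATAAA, the CCAAT box, the GC box as GGGCGG and the AP-1 site as TGANTCA, and matches of different motifs did not overlap in the stretches shown. Slc22a6 held 2 CCAAT matches on opposite strands, which overlap. Slc13a4 held 3 CCAAT matches and 1 GGGCGG match. The other 4 stretches held no match to any of the 5. Only the printed bases were searched there, which are 107 in Ptgds, 187 in Prelp and 195 in Slc13a4. The bases nearest the start of these 3 genes are thus not covered. Of all 32851 promoters, searched over the full 200 bases, 9.46% held TGTTTA, 9.96% TATAAA, 29.3% CCAAT, 31.0% GGGCGG and 5.48% TGANTCA. Promoters were found in the RefSeq table for 25 of the 34 members. Of the 31 promoters of these genes, also searched over the full 200 bases, 10 held CCAAT, 14 GGGCGG, 3 TGANTCA, 2 TGTTTA and 2 TATAAA. None of the 5 motifs was present in all of the Ptgds, Slc22a6, Slc13a4 and Ogn stretches.

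On a scale of CPM per kilobase of transcript, which allows genes to be ranked, Ptgds stood far above the other members with a mean of 1125 over the 24 libraries. Mgp followed at 44.7, Col4a2 at 36.0, Col4a1 at 16.2, Prelp at 15.5 and Dcn at 12.5. That order is of means over all libraries and differs between groups. By the median per kilobase, Col4a2 was above Mgp in PICK1i (43.2 against 25.4) and in PSD-95i (34.7 against 33.4), and below it in Saline (32.4 against 60.5). Prelp and Dcn, with medians of 19.1 and 18.8, were above Col4a1 (16.03) in Saline and below it in the other 2 groups. The fibrillar collagens were lower, at 6.16 for Col1a2, 3.13 for Col5a2, 1.86 for Col1a1, 1.24 for Col5a1 and 0.572 for Col3a1. Aspn was the lowest at 0.254.

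The members did not vary as a single block across libraries. The ratio of the highest to the lowest library was 84.9 for Slc22a6, 40.0 for Slc13a4, 38.8 for Ogn and 26.7 for Foxc2. By the same measure the ratio was 1.60 for Col4a1, 2.28 for Fbln5 and 2.40 for Col4a2. As a description, the 10 libraries highest in Slc22a6, an organic anion transporter of the arachnoid, were taken as a yardstick, a choice made after its values had been seen. They were PICK1i 2, 7 and 8, PSD-95i 1, 3, 5 and 8, and Saline 2, 4 and 7. All 3 groups hold such libraries.

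The 10 libraries highest in Ptgds, Ogn, Slc6a13, Slc13a4 and Crabp2 were the same 10 as for Slc22a6. Fmod, Fbln1, Igfbp2, Serping1, Aldh1a2, Foxc1 and Foxc2 shared 9 of them. Col1a2, Col3a1, Fn1, Mgp, Islr and Pcolce shared 8, and Dcn, Lum and Bgn 7. Col4a2 shared 2, Col4a1 and Col6a3 3, Col5a2 4, and Prelp, Fbln2, Fbln5 and Col6a2 5. Of the 33 tested members 57.6% shared at least 8 of 10, against 0.843% of all 15667 tested genes. These are counts within the same 24 libraries and carry no test.

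A second list of markers of leptomeningeal and arachnoid cells, which holds none of the members, followed the same libraries. Of its 26 tested genes 13 shared at least 8 of the 10 libraries. Ranbp3l, an arachnoid marker, was the gene of this list that shared all 10. The count was 3 of 15 genes of TGF-beta signalling and growth factors, among them Bmp7, a growth factor of the meninges, which shared all 10. It was 1 of 15 genes of matrix degradation, 0 of 26 genes of collagen processing and crosslinking, 1 of 20 endothelial and mural markers, 0 of 9 choroid plexus markers, 0 of 10 ependymal markers, 2 of 11 markers of microglia and border macrophages and 0 of 3 tested anterior pituitary markers. It was 0 in the lists for oligodendrocytes, astrocytes, red blood cells and hypothalamus. The yardstick was itself a member, which enters the share of the members.

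**Figure D1:**
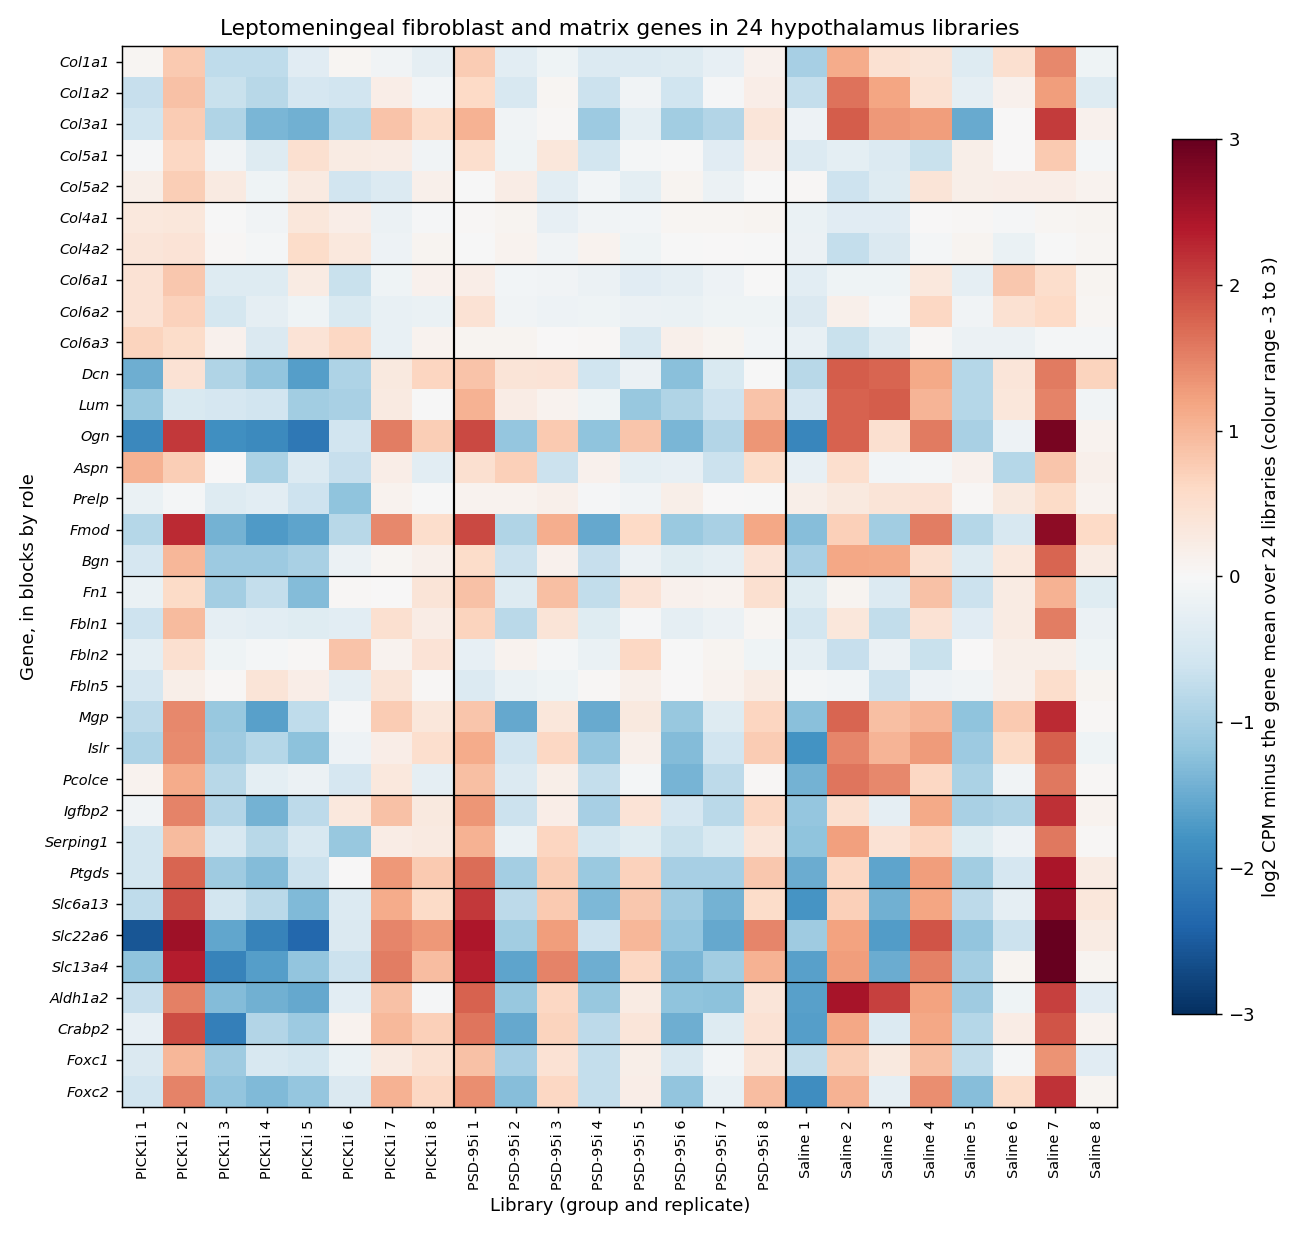
Level of the 34 genes in each library (columns, by group and replicate) as log2 CPM minus the gene's mean over 24 libraries; rows are grouped by role, and red is above and blue below the gene's mean. Saline 7 is red in most rows, PICK1i 2 and PSD-95i 1 in many, and the rows of collagen IV, Prelp and Fbln5 are pale.

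Between PICK1i and Saline, 5 members passed the test at an adjusted p under 0.05. Prelp, Dcn and Lum, which encode small leucine-rich repeat proteins, fell in PICK1i, and Col4a2 and Col6a3, which encode collagen chains, rose. The 3 lower members stand beside 4.27% of all tested genes called lower, and the 2 higher members beside 4.88% called higher. With so few calls, the counts are a description of these genes and nothing is read from their size against the background. The other 28 tested members did not pass. Of the 33, 26 had a log2 fold change below 0 and 7 above it, with a median of -0.41, while 51.8% of all tested genes lay below 0 with a median of -0.01. For every member the ranges of the PICK1i and Saline libraries overlapped. Overlap was not counted over all tested genes, so nothing is read from it about the members. With only these 2 groups in the fit, no member passed, beside 0 of all 15287 tested genes. With sample weights in limma-voom no member passed either, beside 3 of all 15667. Different amounts of leptomeningeal tissue in the samples of either group and different RNA per cell cannot be told apart in bulk tissue.

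The 3 genes that fell encode small leucine-rich repeat proteins. Prelp, a heparin-binding anchor of basement membranes to connective tissue, was the called member with the smallest p. Prelp ranged from 21.2 to 53.2 CPM in PICK1i libraries (median 41.3), from 45.6 to 55.4 CPM in PSD-95i libraries (median 51.1) and from 50.3 to 72.6 CPM in Saline libraries (median 60.2). All 8 PICK1i libraries lay below the Saline median, and PICK1i 6 was the lowest library at 21.2 CPM. Prelp averaged 40.3 ± 10.2 CPM in PICK1i and 60.1 ± 7.32 CPM in Saline (SD, n = 8 each), a log2 fold change of -0.58 ± 0.11 (adjusted p = 0.0175). Each ± on a log2 fold change is a standard error, the absolute log2 fold change over the square root of the F statistic. That statistic comes from the quasi-likelihood test of the edgeR fit to 24 libraries. Each adjusted p comes from the same test over all tested genes.

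Dcn encodes decorin, which binds collagen I and growth factors of the TGF-beta family. Dcn ranged from 5.26 to 27.2 CPM in PICK1i libraries (median 8.98), from 7.05 to 31.04 CPM in PSD-95i libraries (median 16.02) and from 9.29 to 61.5 CPM in Saline libraries (median 32.8). Its 3 highest libraries were Saline 2, 3 and 7, at 61.5, 58.5 and 51.4 CPM, while Saline 1 and 5 lay at 9.47 and 9.29 CPM, among the PICK1i values. Dcn averaged 13.5 ± 8.74 CPM in PICK1i and 34.7 ± 20.9 CPM in Saline (SD, n = 8 each), and fell with a log2 fold change of -1.36 ± 0.39 (adjusted p = 0.0329), with 8 of 8 PICK1i libraries below the Saline median.

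Lum encodes lumican, a keratan sulfate proteoglycan that limits the width of collagen fibrils. Lum ranged from 0.785 to 2.46 CPM in PICK1i libraries (median 1.303), from 0.758 to 4.38 CPM in PSD-95i libraries (median 1.995) and from 0.978 to 7.697 CPM in Saline libraries (median 3.45). The 3 highest libraries were again Saline 3, 2 and 7, at 7.697, 7.46 and 6.105 CPM. Lum averaged 1.37 ± 0.593 CPM in PICK1i and 4.04 ± 2.75 CPM in Saline (SD, n = 8 each), with a log2 fold change of -1.52 ± 0.42 (adjusted p = 0.0282) and 8 of 8 PICK1i libraries below the Saline median. Dcn and Lum are neighbours on chromosome 10, 46984 bases apart on the same strand with no coding gene between them.

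Bgn and Fmod belong to the same family. Bgn encodes biglycan, the closest relative of decorin. Bgn ranged from 7.37 to 32.3 CPM in PICK1i libraries (median 12.7), from 9.86 to 23.7 CPM in PSD-95i libraries (median 13.6) and from 7.999 to 54.8 CPM in Saline libraries (median 21.5). Its log2 fold change was -0.88 ± 0.32 (adjusted p = 0.0762), with 7 of 8 PICK1i libraries below the Saline median. Fmod encodes fibromodulin, which takes part in collagen crosslinking. Fmod ranged from 3.52 to 57.3 CPM in PICK1i libraries (median 6.56), from 3.94 to 47.8 CPM in PSD-95i libraries (median 12.1) and from 4.799 to 77.7 CPM in Saline libraries (median 13.4). PICK1i 2, PSD-95i 1 and Saline 7 were the highest of their groups, and the log2 fold change was -0.41 ± 0.62 (adjusted p = 0.693). Ogn, which encodes osteoglycin, gave -0.74 ± 0.65 (adjusted p = 0.471). All 6 tested genes of this family had values below 0, and 3 of them passed.

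**Figure D2:**
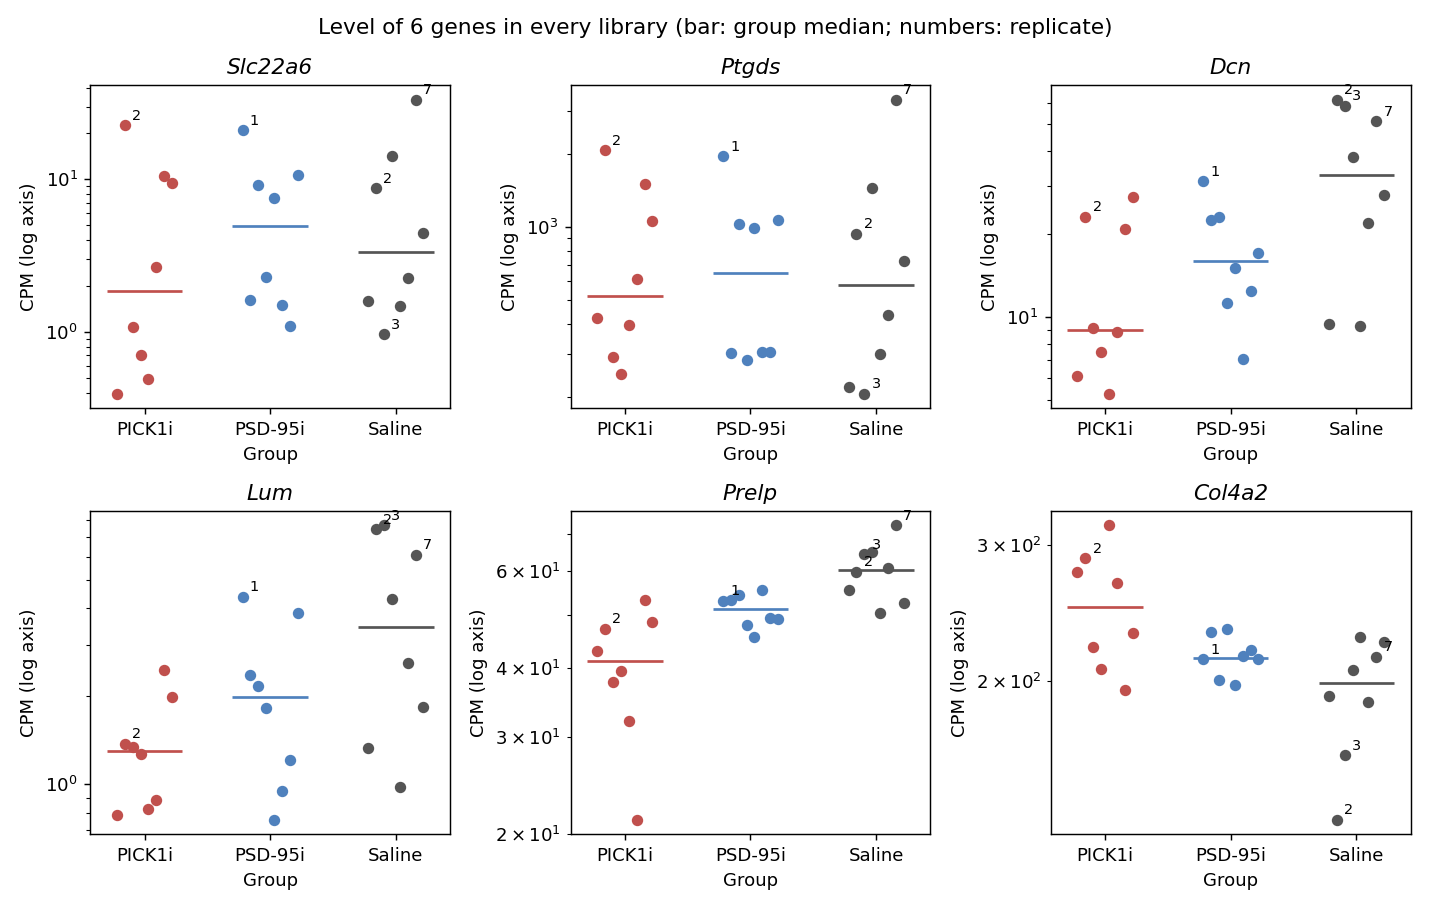
Level in CPM (log axis) of 6 genes in every library, with PICK1i, PSD-95i and Saline from left to right; points are libraries, bars are group medians and small numbers mark replicates. Slc22a6 and Ptgds spread over a wide range in every group, Dcn and Lum are highest in Saline 2, 3 and 7, all PICK1i values of Prelp lie below the Saline median, and Col4a2 is lowest in Saline 2 and 3.

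Col4a2 rose in PICK1i, and its partner Col4a1 did not pass. Col4a2 encodes a chain of the network-forming collagen of basement membranes. Col4a2 ranged from 195 to 318 CPM in PICK1i libraries (median 249), from 197 to 233 CPM in PSD-95i libraries (median 214) and from 133 to 228 CPM in Saline libraries (median 199). Col4a2 averaged 251 ± 43.2 CPM in PICK1i and 193 ± 32.9 CPM in Saline (SD, n = 8 each), and rose with a log2 fold change of 0.36 ± 0.10 (adjusted p = 0.0255). PICK1i 5, 2, 1 and 6 were the 4 highest libraries, at 318, 288, 276 and 268 CPM, and these are the libraries with the highest mitochondrial shares. Saline 2 and 3 were the lowest, at 133 and 160.4 CPM. The summed level of 10 oligodendrocyte and myelin markers was highest in PICK1i 6, 5 and 1, at 10386, 9474 and 8502 CPM, and lowest in Saline 2 and 3, at 2853 and 3876 CPM. Its part in the values of Col4a2 and Col6a3 was not tested.

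Col4a1, its partner chain, lies head to head with Col4a2 on chromosome 8, and their annotated ends overlap by 22 bases. Col4a1 ranged from 92.2 to 133 CPM in PICK1i libraries (median 112), from 88.3 to 111 CPM in PSD-95i libraries (median 108) and from 82.9 to 109.7 CPM in Saline libraries (median 103). The log2 fold change was 0.19 ± 0.08 (adjusted p = 0.122), in the same direction as Col4a2 but short of the threshold. PICK1i 5, 2, 1 and 6 were also the 4 highest libraries for Col4a1, between 120.2 and 133 CPM.

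Among the collagen VI chains, which form beaded filaments around cells, Col6a3 passed the test. Col6a3 ranged from 10.8 to 23.6 CPM in PICK1i libraries (median 17.8), from 10.5 to 16.4 CPM in PSD-95i libraries (median 15.3) and from 9.08 to 15.01 CPM in Saline libraries (median 12.98). Col6a3 averaged 17.9 ± 4.74 CPM in PICK1i and 12.8 ± 1.88 CPM in Saline (SD, n = 8 each), a log2 fold change of 0.45 ± 0.13 (adjusted p = 0.0366). PICK1i 1, 6, 2 and 5 were again the 4 highest, at 23.6, 22.8, 21.6 and 19.6 CPM. Left without these 4 libraries, the PICK1i group gave log2 fold changes of 0.13 for Col4a2 (adjusted p = 0.564) and 0.10 for Col6a3 (adjusted p = 0.754). Prelp then gave -0.44 (adjusted p = 0.284), Dcn -1.12 (adjusted p = 0.376) and Lum -1.20 (adjusted p = 0.383). No gene of the 16121 then tested passed in either direction.

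The other chains of collagen VI, Col6a1 and Col6a2, did not pass. Col6a1 ranged from 23.2 to 64.9 CPM in PICK1i libraries (median 36.9), from 29.1 to 42.7 CPM in PSD-95i libraries (median 33.7) and from 29.7 to 64.8 CPM in Saline libraries (median 36.5). Its log2 fold change was -0.10 ± 0.17 (adjusted p = 0.7397), and PICK1i 2 and Saline 6 were highest. Col6a2, a neighbour of Col6a1 on chromosome 10, gave -0.26 ± 0.16 (adjusted p = 0.296).

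Fibrillar collagens, the tensile fibres of the meninges, had lower values in PICK1i for 3 of 5 chains, and none passed the test. Col1a2 encodes a chain of collagen I. Col1a2 ranged from 13.8 to 45.8 CPM in PICK1i libraries (median 16.8), from 15.8 to 37.5 CPM in PSD-95i libraries (median 23.3) and from 14.8 to 77.1 CPM in Saline libraries (median 30.5). Its log2 fold change was -0.83 ± 0.31 (adjusted p = 0.0769), with 7 of 8 PICK1i libraries below the Saline median. Col3a1 encodes the chain of collagen III. Col3a1 ranged from 0.658 to 4.27 CPM in PICK1i libraries (median 1.24), from 0.9097 to 4.87 CPM in PSD-95i libraries (median 1.92) and from 0.611 to 10.4 CPM in Saline libraries (median 4.06). Its log2 fold change was -1.17 ± 0.46 (adjusted p = 0.0973), with 7 of 8 libraries below. Col1a1, the other collagen I chain, gave -0.62 ± 0.28 (adjusted p = 0.141). The collagen V chains, which start fibril assembly, gave 0.18 for Col5a1 and 0.06 for Col5a2.

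Pcolce and Mgp are secreted regulators of the matrix. Pcolce encodes an enhancer of the protease that trims procollagen. Pcolce ranged from 2.95 to 12.1 CPM in PICK1i libraries (median 4.63), from 1.897 to 10.3 CPM in PSD-95i libraries (median 4.59) and from 1.87 to 16.97 CPM in Saline libraries (median 7.01). Its log2 fold change was -0.72 ± 0.39 (adjusted p = 0.2198). Mgp encodes matrix Gla protein, an inhibitor of calcification. Mgp ranged from 6.47 to 56.2 CPM in PICK1i libraries (median 16.1), from 6.96 to 37.1 CPM in PSD-95i libraries (median 20.6) and from 8.53 to 98.1 CPM in Saline libraries (median 37.3). Mgp was highest in Saline 7 and gave -0.88 ± 0.46 (adjusted p = 0.202). Islr, which encodes a leucine-rich repeat protein of stromal cells, gave -0.80 ± 0.45 (adjusted p = 0.239), and its counts are uncertain because the annotation of Islr overlaps that of Islr2 on the same strand over 8010 bases.

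Fn1 encodes fibronectin, a scaffold for cell adhesion. Fn1 ranged from 9.86 to 36.9 CPM in PICK1i libraries (median 22.99), from 14.6 to 46.4 CPM in PSD-95i libraries (median 29.7) and from 15.5 to 50.9 CPM in Saline libraries (median 22.4). The log2 fold change was -0.35 ± 0.28 (adjusted p = 0.418). The fibulins, which link elastic fibres and basement membranes, gave -0.21 for Fbln1, 0.40 for Fbln2 and 0.08 for Fbln5, and none of them passed.

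Ptgds, which encodes prostaglandin D2 synthase, a major protein of cerebrospinal fluid, was the most abundant member. Ptgds ranged from 248 to 2075 CPM in PICK1i libraries (median 518), from 283 to 1957 CPM in PSD-95i libraries (median 647) and from 205 to 3357 CPM in Saline libraries (median 579). It spread over a similar range in all 3 groups and gave a log2 fold change of -0.22 ± 0.55 (adjusted p = 0.827). Igfbp2, a carrier of insulin-like growth factors, gave -0.31 ± 0.45 (adjusted p = 0.686), and Serping1, the inhibitor of complement C1, gave -0.64 ± 0.34 (adjusted p = 0.213).

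The transporter genes Slc22a6 and Slc13a4 had the largest ratios of highest to lowest library among the members. Slc22a6 ranged from 0.393 to 22.7 CPM in PICK1i libraries (median 1.86), from 1.09 to 21.1 CPM in PSD-95i libraries (median 4.93) and from 0.962 to 33.3 CPM in Saline libraries (median 3.34). Its lowest library, PICK1i 1, held 2 counts and its highest, Saline 7, held 262. The log2 fold change was -0.47 ± 0.73 (adjusted p = 0.702). Slc13a4 encodes a sodium-sulfate cotransporter. Slc13a4 ranged from 1.47 to 35.7 CPM in PICK1i libraries (median 3.497), from 2.07 to 35.2 CPM in PSD-95i libraries (median 6.82) and from 1.9997 to 59.01 CPM in Saline libraries (median 7.12). It gave -0.50 ± 0.69 (adjusted p = 0.664), and Slc6a13, which encodes a transporter of GABA and taurine, gave -0.34 ± 0.58 (adjusted p = 0.738).

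The retinoic acid genes and transcription factors did not pass either. Aldh1a2, the main retinoic acid synthase of the meninges, was highest in Saline 2, 7 and 3, at 57.3, 42.6 and 42.01 CPM, and gave a log2 fold change of -1.23 ± 0.57 (adjusted p = 0.151). Crabp2, a carrier of retinoic acid into the nucleus, gave -0.20 ± 0.53 (adjusted p = 0.835). Foxc1 and Foxc2, forkhead factors needed for the meninges to form, gave -0.37 ± 0.32 (adjusted p = 0.464) and -0.57 ± 0.53 (adjusted p = 0.503). Foxc2 shares its locus with the predicted gene Gm20388 on the same strand, and its counts are uncertain for that reason.

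**Figure D3:**
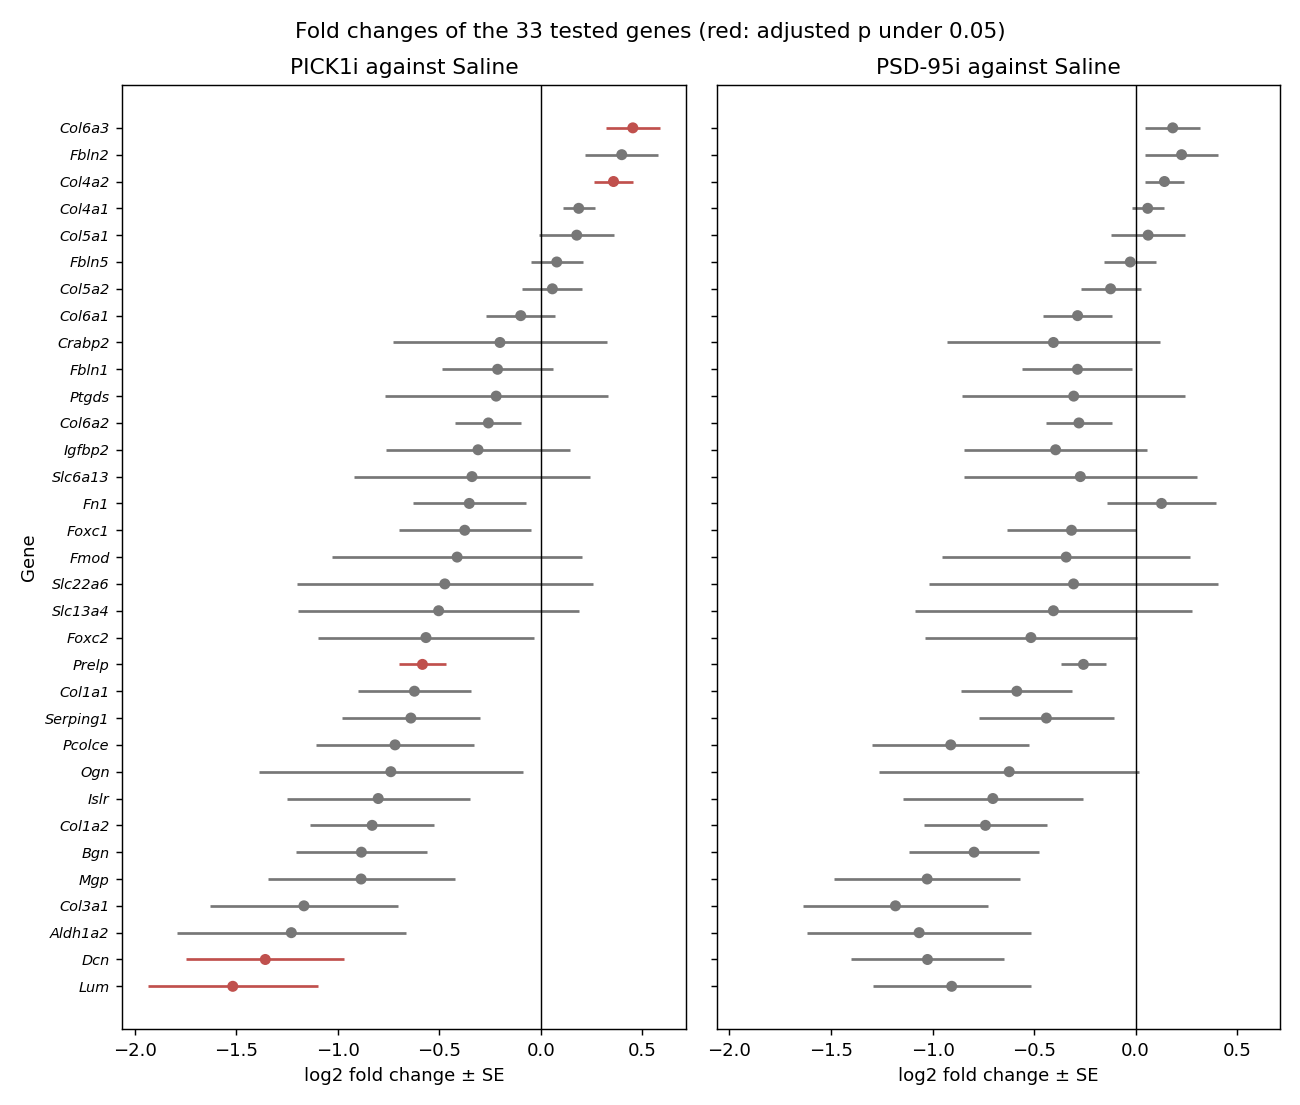
Log2 fold change with standard error of the 33 tested genes for PICK1i against Saline (left) and PSD-95i against Saline (right), in the order of the left panel; red points have an adjusted p under 0.05. The 5 red points are all in the left panel, and most points lie left of 0 in both panels, which share the Saline libraries.

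With 1 library left out at a time, Prelp passed in all 24 fits, and the other 4 called members did not pass without Saline 2, Saline 3, PICK1i 5 or PICK1i 6. Calls over all tested genes also fell there, to 404, 633, 299 and 539 in that order, from 1434 with all 24 libraries. The lost calls are therefore not particular to the members. In the fits where a call was lost, which include PICK1i 1 for Dcn, Lum and Col6a3, PICK1i 2 for Col6a3 and Saline 4 for Dcn, the adjusted p ran from 0.0502 to 0.0758 for Dcn, 0.0524 to 0.0688 for Lum, 0.0511 to 0.0621 for Col4a2 and 0.0664 to 0.0818 for Col6a3. Their log2 fold changes in those fits were -1.34 to -1.17 for Dcn, -1.46 to -1.30 for Lum, 0.29 to 0.34 for Col4a2 and 0.39 to 0.45 for Col6a3.

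The result against Saline was recomputed without the Saline libraries that stood apart. Without Saline 7, the same 2 members were higher and the same 3 lower, beside 5.17% and 4.84% of all tested genes. The median over the members was then -0.14, with 15 above 0 and 18 below, and 8 members had changed sign. Slc22a6 moved to 0.29, Ptgds to 0.41, Slc13a4 to 0.29 and Fmod to 0.21, none of them called. Prelp stood at -0.54 (adjusted p = 0.0162), Dcn at -1.26 (adjusted p = 0.0453) and Lum at -1.41 (adjusted p = 0.0395).

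Without Saline 2 and 3, no member passed, beside 0.0316% of all tested genes (5 of 15820). Prelp gave -0.55 (adjusted p = 0.05404), Dcn -0.93 (adjusted p = 0.139) and Lum -0.99 (adjusted p = 0.138). Col4a2 gave 0.25 (adjusted p = 0.09201) and Col6a3 0.36 (adjusted p = 0.1201). The median over the members was -0.44, with 28 of 33 below 0. An unadjusted p under 0.05 was found for 5 members and for 3839 of all 15820 tested genes. The part of the pituitary transcripts in these values was not tested.

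Without Saline 2, 3 and 7 together, no member and no other gene of 15914 passed in edgeR. An unadjusted p under 0.05 was found for 3 members and for 3744 of all tested genes. The median over the members was then 0.10, with 19 above 0 and 14 below. Prelp gave -0.48 (adjusted p = 0.0739), Dcn -0.62 (adjusted p = 0.335), Lum -0.61 (adjusted p = 0.367), Col4a2 0.26 (adjusted p = 0.1102) and Col6a3 0.37 (adjusted p = 0.147). These 5 kept their sign, while 14 of the 33 members changed theirs.

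**Figure D4:**
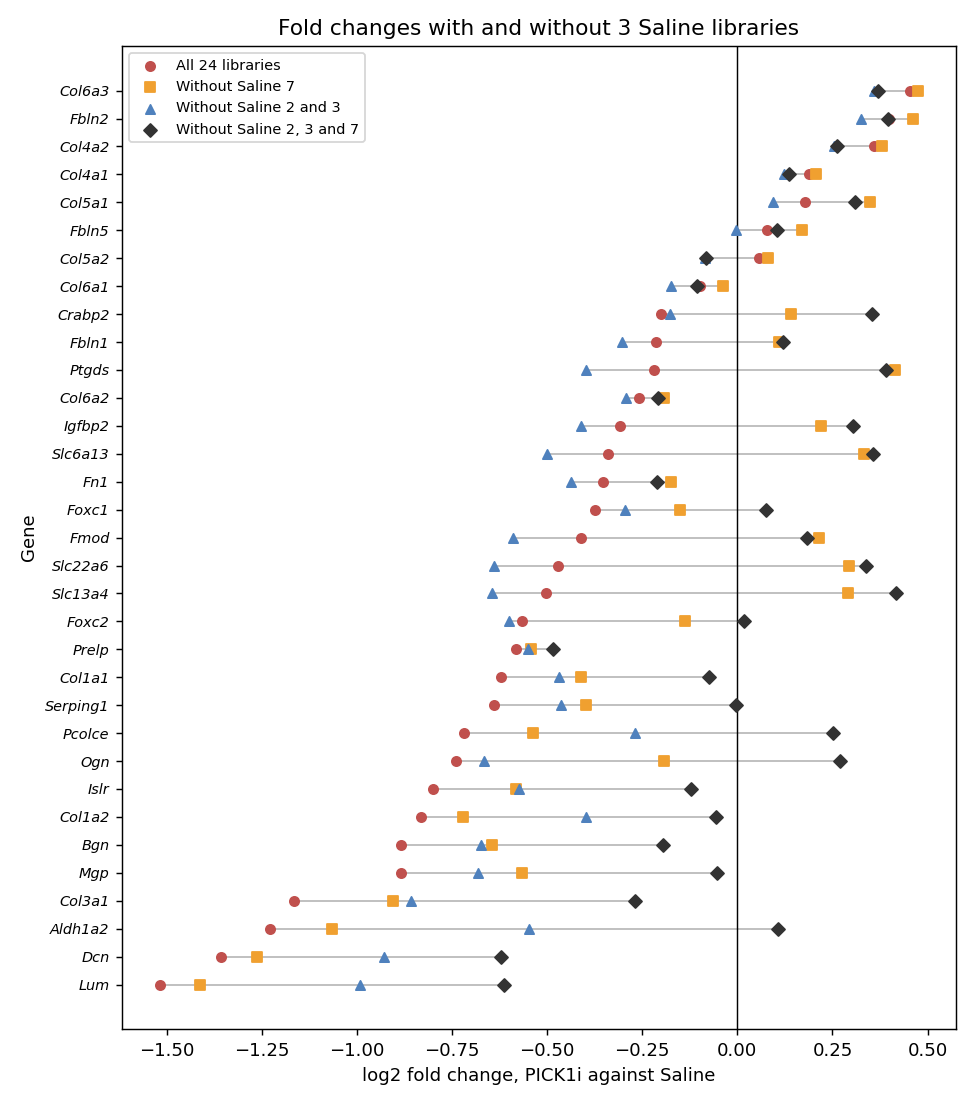
Log2 fold change of PICK1i against Saline for the 33 tested genes with all 24 libraries (circles), without Saline 7 (squares), without Saline 2 and 3 (triangles) and without Saline 2, 3 and 7 (diamonds). Slc22a6, Ptgds and Slc13a4 cross 0 when Saline 7 is left out, Dcn and Lum move toward 0 when Saline 2 and 3 are left out, and Prelp, Col4a2 and Col6a3 stay on their side of 0.

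Saline 2 and 3 were unlike each other in the transporters. Slc22a6 stood at 8.76 CPM in Saline 2 and 0.962 CPM in Saline 3, and Ptgds at 939 and 205 CPM, where the Saline 3 value was the lowest of all 24 libraries. Saline 3 was high in Dcn, Lum, Aldh1a2, Col1a2 and Pcolce, and low in Slc22a6, Slc13a4, Slc6a13, Ptgds and Fmod. Saline 7 was high in all of these genes. High levels of Dcn and Lum thus came with and without high levels of Slc22a6 and Ptgds.

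**Figure D5:**
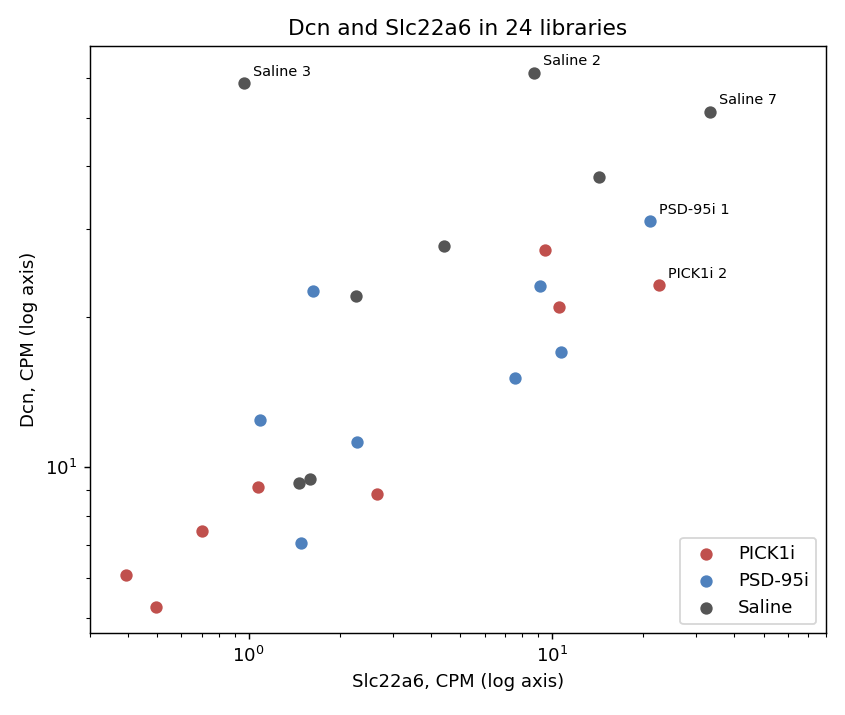
Dcn against Slc22a6 in CPM (both axes log) in 24 libraries, coloured by group, with 5 libraries named. Saline 3 has a high level of Dcn at a low level of Slc22a6, and Saline 2 and 7 are high in both.

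Between PSD-95i and Saline, no member passed, beside 0% of all tested genes in edgeR. The smallest adjusted p of a member was 0.379, 9 members had an unadjusted p under 0.05, and 1719 of all tested genes did. DESeq2 and limma-voom also called 0 genes. The median over the members was -0.34, with 27 below 0 and 6 above, and the same Saline libraries enter this comparison as the one with PICK1i. Dcn gave -1.02 ± 0.38 (adjusted p = 0.379), Col3a1 -1.18 ± 0.45 (adjusted p = 0.389), Bgn -0.80 ± 0.32 (adjusted p = 0.401) and Col1a2 -0.74 ± 0.30 (adjusted p = 0.406). Pcolce gave -0.91 ± 0.39 (adjusted p = 0.425) and Lum -0.91 ± 0.39 (adjusted p = 0.425).

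Mgp gave -1.03 ± 0.46 (adjusted p = 0.433), with all 8 PSD-95i libraries below the Saline median. Prelp gave -0.26 ± 0.11 (adjusted p = 0.431), Col4a2 0.14 ± 0.10 (adjusted p = 0.572) and Col6a3 0.18 ± 0.13 (adjusted p = 0.602). Slc22a6 gave -0.31 ± 0.71 (adjusted p = 0.897) and Ptgds -0.30 ± 0.55 (adjusted p = 0.858). Without Saline 7 the median over the members was -0.09, without Saline 2 and 3 it was -0.38, and without all 3 it was 0.06, with 21 members above 0. Without all 3, Dcn gave -0.29 and Lum -0.01, both far from the threshold.

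Between PSD-95i and PICK1i, no member passed, beside 0% of all tested genes in edgeR, where 3789 genes had an unadjusted p under 0.05. Other tools differed on the count over all genes, with 1260 called by DESeq2 and 429 by limma-voom, none of them a member. Prelp had the smallest p, with a log2 fold change of 0.33 ± 0.12 (adjusted p = 0.0933), and no PSD-95i library lay below the PICK1i median. Col4a2 gave -0.22 ± 0.10 (adjusted p = 0.163) and Col6a3 -0.27 ± 0.13 (adjusted p = 0.211), and for each of them all 8 PSD-95i libraries lay below the PICK1i median. Fn1 gave 0.48 ± 0.28 (adjusted p = 0.288). The median over the members was 0.04, with 17 above 0 and 16 below. Without PICK1i 7, Prelp passed with 0.40 (adjusted p = 0.0209), beside 8.11% of all tested genes called higher. Leaving out PICK1i 1, 2, 5 and 6 brought Col4a2 to 0.01 and Col6a3 to 0.08.

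At the level of transcripts, 129 transcripts of the members were in the table and 56 were tested. For PICK1i against Saline 2 of them passed, beside 2.00% of all 37955 tested transcripts. Prelp-201, which carried 96.7% of Prelp, fell with a log2 fold change of -0.60 ± 0.12 (adjusted p = 0.0373). Lum-201, the sole transcript of Lum with counts, fell with -1.52 ± 0.41 (adjusted p = 0.0472). Dcn was split over Dcn-202 with 79.0% and Dcn-201 with 20.98%, which gave -1.39 (adjusted p = 0.0524) and -1.28 (adjusted p = 0.0559). Col4a2-201, with 99.1% of Col4a2, gave 0.34 (adjusted p = 0.0521). The main transcript of Col6a3, Col6a3-202 with 73.4%, gave 0.36 (adjusted p = 0.12). Fibronectin was spread over many transcripts, with 37.7% in Fn1-203 and 26.3% in Fn1-214, and none was called. The division of reads among transcripts of a gene is itself an estimate.

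Other genes of matrix and meninges were counted from lists beside the members. The counts stand beside 4.27% of all tested genes called lower and 4.88% called higher, and with so few calls a list nothing is read from them. Of 26 tested markers of leptomeningeal and arachnoid cells, none was called between PICK1i and Saline, with a median log2 fold change of -0.31. Of 26 genes of collagen processing and crosslinking, 1 was higher and 2 lower, with a median of 0.00. Pcolce2, a relative of Pcolce, rose with 0.39 ± 0.11 (adjusted p = 0.0337), while Loxl1, a lysyl oxidase, fell with -1.14 ± 0.35 (adjusted p = 0.0418) and P4hb, a subunit of prolyl hydroxylase, fell with -0.42 ± 0.13 (adjusted p = 0.0408). Of 15 genes of matrix degradation, Timp3, an inhibitor of metalloproteinases held in the matrix, was lower with -0.37 ± 0.11 (adjusted p = 0.0335).

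Of 15 genes of TGF-beta signalling and growth factors, 3 were lower, beside 4.27% of all tested genes, and none higher. Ltbp1, which anchors latent TGF-beta in the matrix, gave -0.85 ± 0.25 (adjusted p = 0.0340), the receptor gene Tgfbr1 -0.42 ± 0.12 (adjusted p = 0.0315) and the signal transducer Smad3 -0.34 ± 0.11 (adjusted p = 0.0416). Of 20 endothelial and mural markers, Ly6c1 was higher with 0.48 ± 0.12 (adjusted p = 0.0236), and Kdr and Kcnj8 were lower with -0.69 ± 0.20 (adjusted p = 0.0350) and -0.48 ± 0.15 (adjusted p = 0.0445). No gene of these lists was called in the other 2 comparisons.

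Summed levels of the marker lists of neighbouring cell types are given beside these results. A sum is of the listed genes and is not a measure of the amount of a cell type. The summed level of the other leptomeningeal and arachnoid markers ran from 493 to 828 CPM in PICK1i, from 482 to 736 CPM in PSD-95i and from 494 to 1086 CPM in Saline, where Saline 7 was highest. That list shares Cldn11 with the oligodendrocyte list and Gjb6 with the astrocyte list. Its sum was still 528 CPM in PICK1i 1, the library lowest in Slc22a6. Endothelial and mural markers summed to 444 to 648 CPM in PICK1i, 484 to 605 CPM in PSD-95i and 476 to 842 CPM in Saline, again with Saline 7 highest. Choroid plexus markers summed to 161 to 230 CPM in PICK1i, 205 to 244 CPM in PSD-95i and 187 to 253 CPM in Saline, and Ttr, its most abundant transcript, was at most 4.86 CPM in PICK1i, 4.47 CPM in PSD-95i and 16.4 CPM in Saline. Of 13 anterior pituitary markers 3 were tested, and the summed level reached 32.6 CPM in PICK1i, 69.8 CPM in PSD-95i and 58750.5 CPM in Saline. Of the 3, Cga, the subunit shared by pituitary glycoprotein hormones, and Tbx19, a factor of corticotrophs, were called lower in PICK1i, with adjusted p of 0.0175 and 0.0324. Cga reached 9.22 CPM in PICK1i and 1762 CPM in Saline, and Tbx19 3.93 CPM in PICK1i and 36.5 CPM in Saline.

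Oligodendrocyte and myelin markers summed to 5416 to 10386 CPM in PICK1i, 5564 to 6798 CPM in PSD-95i and 2853 to 7553 CPM in Saline. Their median log2 fold change between PICK1i and Saline was 0.25, and 1 of the 10, the myelin gene Mobp, was higher with 0.52 ± 0.16 (adjusted p = 0.0412). Red blood cell genes summed to 352 to 2039 CPM in PICK1i, 267 to 703 CPM in PSD-95i and 351 to 1191 CPM in Saline, with PICK1i 6 highest. No astrocyte, ependymal, microglial or choroid plexus marker was called. No gene of the lists was at 0 in all libraries. The part of the amount of meninges, pituitary, myelin or blood in each sample was not tested.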

How the data were processed

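The authors deposited estimated counts, unscaled, for genes and for transcripts, from 52-base paired reads of poly(A) RNA (GRCm38, Salmon, STAR and bcl2fastq 2.20.0, per the submitters' processing notes). The annotation, the options and whether strand was used were not given in the sources used here. Counts were whole to within 0.001 in 94.3% of entries, and all were rounded. Genes passing filterByExpr (minimum count 10, with 99.3% of counts) were scaled by TMM and tested by edgeR 4.0.16 (quasi-likelihood, R 4.3.3) in 1 fit of 24 libraries with 21 residual degrees of freedom. P values are two-sided, adjusted by Benjamini and Hochberg over all genes or transcripts, with a threshold of 0.05. Alternatives used DESeq2 1.42.0 and limma 3.58.1, and the procedure was tested on simulated data. Of 84 replicate pairs 0 were identical. Levels per kilobase and positions used GENCODE M21 (GRCm38), in which 128 of 129 transcripts had a length.

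The members and the lists were chosen with earlier results of these data known. Full values are given for the 17 members with the 8 smallest p in each comparison with Saline, the 4 smallest p between the inhibitors, the 5 highest mean levels and the 3 largest ratios of highest to median library.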

Additional observations from a re-analysis of the deposited data

Results flagged for a closer look

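In groups of 8 libraries, a library was picked out where its gap to the nearest other library was, as a share of the range of its group, above the 95% critical value of Dixon's test, which chance gives in about 1 group in 20. Of 102 groups, 24 had such a library, and in 9 of them it was Saline 7. The values below are CPM, and no cause was tested.

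Saline 7 was the highest of its group for Ptgds (3357), Fmod (77.7), Slc13a4 (59.01), Fbln1 (48.97), Igfbp2 (46.04), Ogn (44.6), Slc6a13 (40.4), Slc22a6 (33.3) and Col5a1 (17.2). PICK1i 2 was the highest of its group for Col1a2 (45.8), Bgn (32.3), Slc22a6 (22.7), Islr (22.2), Col1a1 (17.5), Crabp2 (12.9) and Pcolce (12.1). PSD-95i 1 was the highest of its group for Ptgds (1957), Col6a2 (39.4), Aldh1a2 (34.8), Slc6a13 (29.3), Col1a1 (17.2) and Crabp2 (9.98). PSD-95i 5 was the highest of its group for Fbln2 (5.81) and the lowest for Col6a3 (10.5). Saline 2 and 3 were not picked out for any member. The rule can miss libraries that lie close together at the end of a range, as Saline 2 and 3 did for Dcn (61.5 and 58.5).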

How the results depend on the processing

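For PICK1i against Saline, the 2 higher and 3 lower members were the same 5 genes with DESeq2, with RLE size factors, with a stricter filter and with no filter. With limma-voom 1 was higher (Col4a2) and 1 lower (Prelp), with sample weights 0 and 0, with consecutive library numbers as a random effect 0 and 1 (Prelp), and with only these 2 groups 0 and 0. All genes called numbered 1434 in edgeR, 1964 in DESeq2 and 1114 with limma-voom, and among the other limma-voom fits 3 with sample weights and 316 with consecutive numbers. The edgeR fit with only 2 groups called 0. Without Saline 2 and 3 the members called were 0 higher and 0 lower with 5 genes in all, and without Saline 2, 3 and 7, or without PICK1i 1, 2, 5 and 6, 0 and 0 with 0 genes in all. Leaving out 1 library gave 0 to 2 members higher, 1 to 6 lower and 299 to 2757 genes in all. Prelp was called in every such fit. It was the sole member called without Saline 2, Saline 3, PICK1i 5 or PICK1i 6, and without PICK1i 1 Prelp and Col4a2 remained. Col6a3 was lost without PICK1i 2, and Dcn without Saline 4. Of the member transcripts, 2 were called (760 of all 37955), 4 with no filter (530 of 85332), 1 with the replicate block (19 of 37955), and 0 of all transcripts without Saline 2 and 3 or without Saline 2, 3 and 7.

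With the replicate number as a block, 1 member was higher and 3 lower for PICK1i against Saline, beside 624 higher and 503 lower of 15667 genes, and Col6a3 stood at 0.44 (adjusted p = 0.0626). The labels do not say that a number marks a shared mouse, batch or day. Correlations of same-numbered libraries ran from -0.195 to 0.152 over 24 pairs, 5 above 0.1. In 2 of the 24 pairs the same-numbered library was the best match. These values show no pairing by number. They cannot exclude it, because other differences between libraries could hide a weak shared effect.

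For PSD-95i against Saline 0 members and 0 genes were called under every alternative that was run. For PSD-95i against PICK1i, where edgeR called 0 genes, DESeq2 called 1260, limma-voom 429, sample weights 436, the fit without Saline 2 and 3 1208 and the fit without Saline 2, 3 and 7 1015. Leaving out 1 library gave 0 to 2315 genes and 0 to 1 member higher.

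Signs changed for members that were not called, and the cause was not tested. For PICK1i against Saline, Ptgds was 0.024 with limma-voom and 0.025 with consecutive numbers. Without Saline 2, 3 and 7, Fmod was 0.18, Pcolce 0.25, Ptgds 0.39, Slc22a6 0.34 and Slc13a4 0.42. Without PICK1i 1, 2, 5 and 6, Col4a1 was -0.021. Leaving out 1 library gave -0.23 to 0.013 for Col6a1, -0.99 to 0.21 for Fmod, -0.56 to 0.41 for Ptgds, -1.12 to 0.29 for Slc22a6 and -1.07 to 0.29 for Slc13a4. For PSD-95i against Saline, the replicate block gave 0.045 for Fmod, 0.19 for Ptgds, 0.24 for Slc22a6 and 0.069 for Slc13a4. Without Saline 2 and 3, Col4a1 was -0.0012. Without Saline 2, 3 and 7, Col1a2 was 0.037, Fmod 0.25, Pcolce 0.065, Ptgds 0.31, Slc22a6 0.50 and Slc13a4 0.51. Leaving out 1 library gave -0.75 to 0.29 for Fmod, -0.66 to 0.33 for Ptgds, -0.81 to 0.46 for Slc22a6 and -0.94 to 0.39 for Slc13a4. Between PSD-95i and PICK1i, Col4a2 was 0.014 and Col6a3 0.080 without PICK1i 1, 2, 5 and 6. Over all 33 members, signs changed in 22 of 396 values under other settings and 11 of 792 with 1 library left out for PICK1i against Saline, in 22 of 396 and 11 of 792 for PSD-95i against Saline, and in 32 of 395 and 83 of 792 between the inhibitors. Low counts limit Lum, Col3a1, Slc22a6 and Aspn.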
